A study of Mus musculus with 12 samples.

Results

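Messenger RNA of 8 genes that carry or control ion currents in the aldosterone-producing cell was compared between adrenals of control mice (Ctrl) and adrenals in which β-catenin was stabilized (βCat-GOF). The 8 genes were chosen by name and not by their measured values, although earlier results of these data were known. All 8 names matched 1 row each among the 39017 genes of the deposited table. The group holds 4 pore subunits of voltage-gated calcium channels (*Cacna1c*, *Cacna1d*, *Cacna1g* and *Cacna1h*), the auxiliary subunit *Cacna2d1*, the pump genes *Atp1b1* and *Atp2b3*, and the chloride channel gene *Clcn2*. Ctrl mice (n = 6) carried AS Cre/+ alone, and βCat-GOF mice (n = 6) carried AS Cre/+ together with Ctnnb1 fl(ex3)/+. The sample titles label the controls Wt, and the paper describes them as wild type. All 12 were females of 10 to 11 weeks on a mixed sv129 and C57Bl/6 background, with no treatment given. With the genotypes given first, 1 *Cyp11b2* (aldosterone synthase, AS) allele expresses Cre in both groups. This limits recombination to cells that have used the *Cyp11b2* promoter, and in βCat-GOF mice Cre removes the floxed exon 3 from 1 *Ctnnb1* allele. Whole glands were extracted, and a value therefore pools RNA of the zona glomerulosa (zG), the zona fasciculata (zF), the medulla, the capsule and vessels.

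Cells of the zG are held at a negative membrane potential by potassium currents. Angiotensin II or a rise in plasma potassium depolarizes them, calcium enters through low-threshold (T-type) and high-threshold (L-type) voltage-gated channels, and calmodulin-dependent enzymes then raise transcription of *Cyp11b2*. Plasma membrane calcium pumps and the sodium-potassium pump restore the resting state, and chloride leaving through an open chloride channel depolarizes the cell. Mutations of the human *CACNA1D*, *CACNA1H*, *ATP2B3* and *CLCN2* genes are known from aldosterone-producing adenomas or inherited hyperaldosteronism.

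T-type pores differ from high-threshold pores, such as the L-type, in residues that line the selectivity filter, the narrow point where calcium is recognized. The coding sequences of the third pore loop are shown because they show this difference between the T-type genes and the L-type genes. They were read 5′ to 3′ from GENCODE M21 transcripts on GRCm38, all from the minus strand, and the capitals mark the selectivity-filter codon.
Cacna1c: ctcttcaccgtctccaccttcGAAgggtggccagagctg
Cacna1d: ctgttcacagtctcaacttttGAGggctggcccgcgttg
Cacna1g: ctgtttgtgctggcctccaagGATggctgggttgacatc
Cacna1h: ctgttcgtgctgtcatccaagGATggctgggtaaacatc

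The marked codon encodes glutamate in the L-type genes and aspartate in the T-type genes. It lies in exon 27 of *Cacna1c* (chr6:118656124-118656126), in exon 27 of *Cacna1d* (chr14:30100708-30100710), in exon 24 of *Cacna1g* (chr11:94426471-94426473) and in exon 24 of *Cacna1h* (chr17:25383508-25383510). A near-identical copy was taken as another gene whose transcripts match 10% or more of the longest transcript at 95% identity or more, and 7 of the 8 genes had none. The exception was *Atp1b1*, which matched *Nme7* over 384 bases. The longest match of *Cacna1c* was to *Cacna1d* at 76.4% identity, and that of *Cacna1h* was to *Cacna1g* at 78.7%. Exons of *Atp1b1* overlap those of *Nme7* on the opposite strand over 18.7% of their length. The strand setting of the counting is not given in the sources used here, so *Nme7* reads cannot be told apart there.

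Between 13484675 and 25625494 reads per library were counted on genes, and 3 counts correspond to 0.117 to 0.222 CPM (counts scaled to a common library total). All 3 tissue compartments were present in every library, since *Cyp11b2* (zG) had at least 2987 normalized counts in Ctrl and 2056 in βCat-GOF mice, *Cyp11b1* (zF) at least 232800 and 144000, and *Th* (medulla) at least 5975 and 9357. Total counts of *Ctnnb1* do not resolve the deleted exon and were not used as a check of genotype. A common label stem is found in 3 pairs (Ctrl mice 1 and 2, Ctrl mice 3 and 4, βCat-GOF mice 1 and 2), and whether a pair is related is not given. All Ctrl labels begin with 1 number and 5 of the 6 βCat-GOF labels with another, so that number and the genotype cannot be told apart.

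None of the 8 genes was called different between βCat-GOF and Ctrl adrenals. Of the 8 genes, 7 passed the filter on low counts, and 0 of these 7 reached an adjusted p under 0.05 in edgeR's quasi-likelihood test, against 2.16% of the 14953 genes tested called higher and 1.52% called lower. At an unadjusted p under 0.05, edgeR gave 1 of the 7 genes (*Clcn2*). DESeq2 also called 0, with 2 genes at an unadjusted p under 0.05. The groups of no gene were free of overlap, which held for 1.61% of all genes tested with βCat-GOF higher and for 1.16% with βCat-GOF lower. The median log2 fold change over all genes tested was 0.000105, and those of the 7 genes ran from -0.32 to 0.40.

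**Figure D1:**
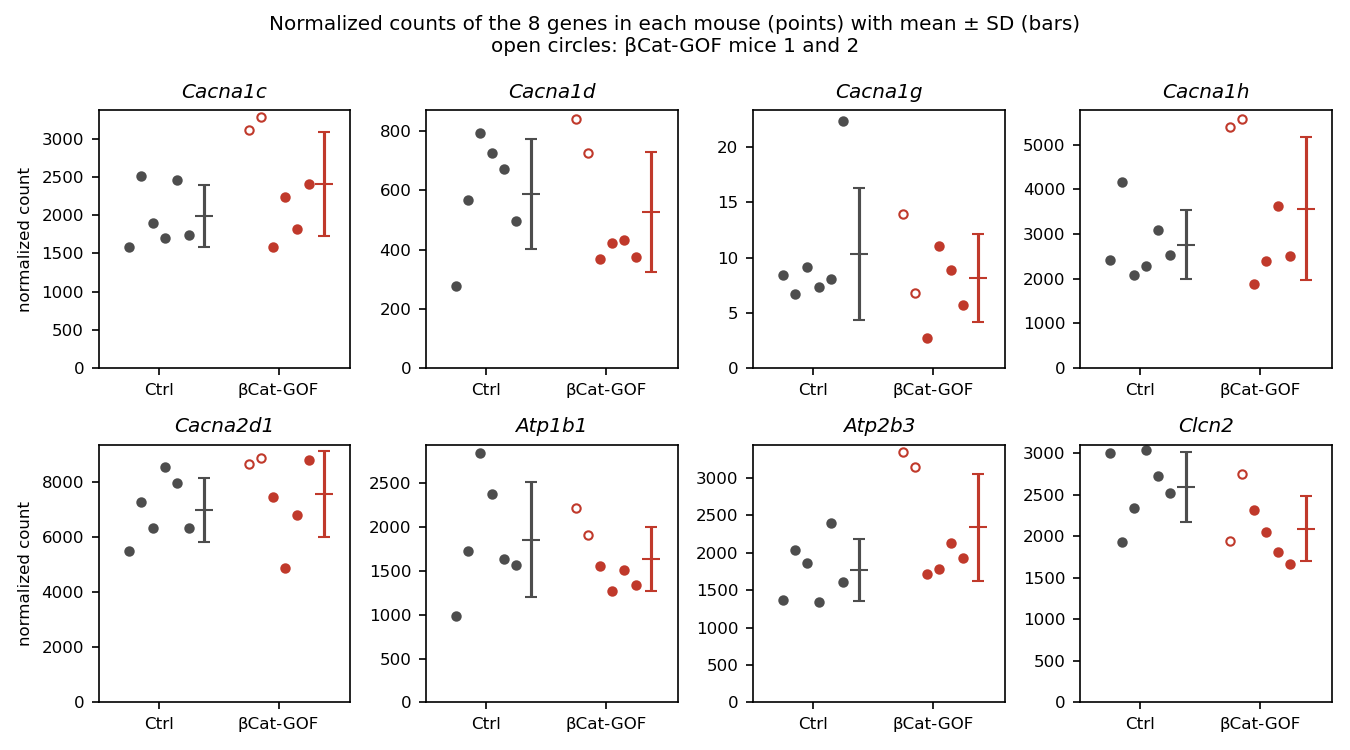
Normalized counts (counts divided by the size factor of each library, linear axes from 0) of the 8 genes in each mouse, with points for mice, bars for mean ± SD (n = 6 per group) and open circles for βCat-GOF mice 1 and 2. The ranges of the groups overlap for every gene, and the open circles are the highest βCat-GOF points for *Cacna1c*, *Cacna1d*, *Cacna1h*, *Atp1b1* and *Atp2b3*.

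*Cacna1h* (chr17:25374285-25433783, minus strand) encodes Cav3.2, the T-type pore that opens at small depolarizations. In Ctrl adrenals it had 2086 normalized counts in the lowest mouse, a median of 2473 and 4173 in the highest (mean 2763 ± 769.9, SD, n = 6). In βCat-GOF adrenals the lowest mouse had 1891, the median was 3065 and the highest had 5585 (mean 3569 ± 1596, SD, n = 6). βCat-GOF mice 1 and 2, at 5402 and 5585, lay above every control, and 1 βCat-GOF mouse lay below every control, so the groups overlapped. The log2 fold change was 0.37 (standard error 0.27, 95% interval -0.21 to 0.95) with an adjusted p of 0.474 in edgeR. Without βCat-GOF mice 1 and 2 it was -0.10 (standard error 0.21, adjusted p = 0.803 in edgeR).

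The other T-type gene, *Cacna1g* (chr11:94408391-94474198, minus strand, encoding Cav3.1), was close to the limit of detection. It had between 3 and 18 raw counts in a library and did not pass the filter. Normalized counts were 6.67 to 22.3 in Ctrl (median 8.26) and 2.68 to 13.9 in βCat-GOF mice (median 7.85). The groups overlapped, and the means of 10.3 ± 5.95 and 8.18 ± 3.99 (SD, n = 6 each) differed by less than the SD (p = 0.55, two-sided exact permutation). No change of *Cacna1g* was detected at these counts.

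The L-type genes are *Cacna1c*, for Cav1.2, and *Cacna1d*, for Cav1.3, which opens at more negative potentials than Cav1.2. *Cacna1c* (chr6:118587240-119196418, minus strand) had 1586, 1823 and 2515 normalized counts in the lowest, median and highest control (mean 1985 ± 403.7, SD, n = 6). Its βCat-GOF values were 1581, 2321 and 3284 (mean 2406 ± 682.1, SD, n = 6). Only βCat-GOF mice 1 and 2, at 3113 and 3284, lay above every control. From Ctrl to βCat-GOF the log2 fold change was 0.27 (standard error 0.19, 95% interval -0.13 to 0.67, adjusted p = 0.44 in edgeR), and without these mice it was 0.005 (adjusted p = 0.99).

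*Cacna1d* (chr14:30039939-30491455, minus strand) had 278 normalized counts in the lowest control, a median of 619 and 792 in the highest (mean 588.7 ± 185.7, SD, n = 6). In βCat-GOF mice the lowest was 369, the median 429 and the highest 843 (mean 528.5 ± 203, SD, n = 6). Here 4 of the βCat-GOF mice lay between 369 and 434, while mice 1 and 2 had 843 and 725, and Ctrl mouse 1 was below all others at 278. The log2 fold change was -0.16 (standard error 0.27, 95% interval -0.73 to 0.41, adjusted p = 0.787 in edgeR). Leaving out βCat-GOF mice 1 and 2 moved it to -0.57 (standard error 0.23, adjusted p = 0.129 in edgeR).

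*Cacna2d1* (chr5:15934691-16374511, plus strand) encodes the α2δ-1 subunit, which brings the pores of high-threshold calcium channels to the cell surface. It had 5490, 6802 and 8559 normalized counts in the lowest, median and highest control, and 4874, 8063 and 8881 in βCat-GOF mice. Means were 6991 ± 1151 and 7587 ± 1569 (SD, n = 6 each). 3 βCat-GOF mice (1, 2 and 6) lay above every control and mouse 4 lay below every control. edgeR gave a log2 fold change of 0.11 (95% interval -0.22 to 0.44, standard error 0.15, adjusted p = 0.735), and it was -0.01 without βCat-GOF mice 1 and 2 (adjusted p = 0.973).

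*Atp2b3* (chrX:73503086-73571005, plus strand) encodes PMCA3, a pump that moves calcium out across the plasma membrane. The lowest, median and highest controls had 1337, 1738 and 2403 normalized counts (mean 1770 ± 412.5, SD, n = 6). The corresponding βCat-GOF values were 1720, 2033 and 3345 (mean 2345 ± 715, SD, n = 6). βCat-GOF mice 1 and 2 had 3345 and 3147, above every control, and the other 4, between 1720 and 2130, lay within the control range. A log2 fold change of 0.40 (standard error 0.20, 95% interval -0.03 to 0.83) had an adjusted p of 0.276 in edgeR, and without the 2 mice it was 0.09 (adjusted p = 0.76). With 1 surrogate variable in the edgeR fit it was 0.69 (standard error 0.14, adjusted p = 0.0142), the single setting in which any of the 8 genes was called.

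*Atp1b1* (chr1:164437109-164458355, minus strand) encodes the β1 subunit of the sodium-potassium pump, which is needed for the pump to reach the membrane. Controls ran from 981.7 (Ctrl mouse 1) through a median of 1678 to 2844 normalized counts (Ctrl mouse 3), with a mean of 1854 ± 657 (SD, n = 6). βCat-GOF mice ran from 1268 through a median of 1532 to 2214, with a mean of 1632 ± 360.5 (SD, n = 6). All 6 βCat-GOF values lay inside the control range. On the log2 scale the change was -0.19 (standard error 0.22, 95% interval -0.66 to 0.28, adjusted p = 0.676 in edgeR). The value was -0.40 without βCat-GOF mice 1 and 2 (adjusted p = 0.276 in edgeR).

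*Clcn2* (chr16:20702964-20717746, minus strand) encodes ClC-2, a chloride channel that opens at negative potentials. It had 1925, 2621 and 3033 normalized counts in the lowest, median and highest control (mean 2589 ± 421.6, SD, n = 6) and 1669, 1994 and 2750 in βCat-GOF mice (mean 2088 ± 391, SD, n = 6). 2 βCat-GOF mice lay below every control and 2 controls lay above every βCat-GOF mouse, and βCat-GOF mouse 2 was the highest of its group. The log2 fold change was -0.32 (standard error 0.13, 95% interval -0.61 to -0.03), with an unadjusted p of 0.0335 and an adjusted p of 0.204 in edgeR, and exact permutation of its normalized counts gave a two-sided p of 0.0649. Its direction was negative in all 12 fits that left out 1 mouse (-0.40 to -0.27, adjusted p 0.097 to 0.359 in edgeR), and without βCat-GOF mice 1 and 2 it was -0.42 (adjusted p = 0.0674).

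**Figure D2:**
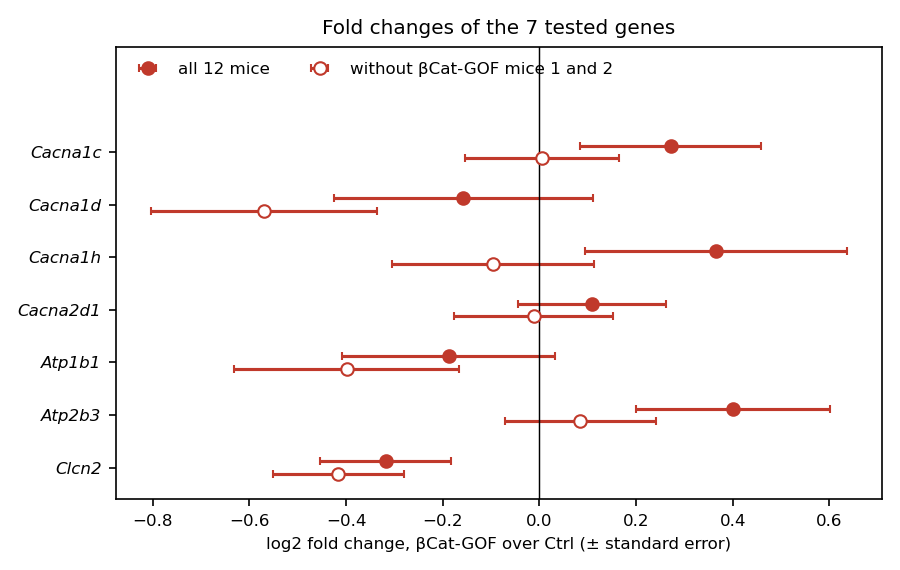
Log2 fold changes of βCat-GOF over Ctrl (x axis) with standard errors for the 7 tested genes, with all 12 mice (filled) and without βCat-GOF mice 1 and 2 (open). These 2 mice were left out after their values were seen and hold the highest βCat-GOF values of 5 genes, which fixes a shift to the left for those; *Cacna1h* is at 0.37 and -0.10, and *Clcn2* at -0.32 and -0.42.

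Levels of different genes were compared per length, as RPKM (reads per kilobase of exons, scaled to a common library total). In Ctrl adrenals the mean levels per length were 30.0 for *Atp1b1*, 28.1 for *Cacna2d1*, 21.4 for *Clcn2*, 18.3 for *Atp2b3*, 14.1 for *Cacna1h*, 4.67 for *Cacna1c*, 2.33 for *Cacna1d* and 0.0508 for *Cacna1g*. Neighbours among the first 5 were not separated: the mean log2 ratio was 0.03 ± 0.46 for *Atp1b1* over *Cacna2d1* (SD, n = 6), the others were between 0.24 and 0.39, and none of these orders held in all 6 controls. The next steps were larger, and the order held in 6 of 6 controls: *Cacna1h* over *Cacna1c* (log2 ratio 1.58 ± 0.21), *Cacna1c* over *Cacna1d* (1.06 ± 0.50) and *Cacna1d* over *Cacna1g* (5.51 ± 0.89). The first of these steps depends on the length used, which merged the exons of all annotated transcripts. This length was 21191 bases for *Cacna1c* and 9763 for *Cacna1h*, against mean normalized counts of 1985 and 2763 in Ctrl. *Cacna1h* had more normalized counts in every control, but much of the log2 ratio of 1.58 came from the lengths. Which transcripts the adrenal uses was not tested. By this length, the T-type genes held both the highest and the lowest level of the 4 pores. In βCat-GOF adrenals the levels per length were 30.5 for *Cacna2d1*, 26.5 for *Atp1b1*, 24.3 for *Atp2b3*, 18.3 for *Cacna1h*, 17.3 for *Clcn2*, 5.68 for *Cacna1c*, 2.10 for *Cacna1d* and 0.0404 for *Cacna1g*. *Cacna1h* and *Clcn2* were not separated there (log2 ratio -0.03 ± 0.63, higher for *Cacna1h* in 3 of 6 mice), and the pores kept their order in 6 of 6 mice for *Cacna1c* over *Cacna1d* (1.47 ± 0.28) and *Cacna1d* over *Cacna1g* (5.68 ± 0.65).

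**Figure D3:**
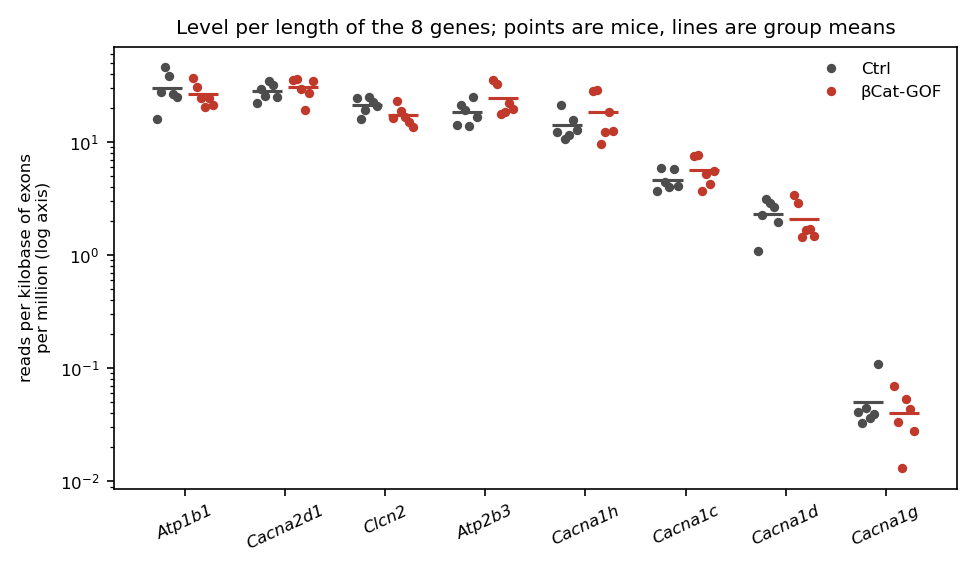
Level per length (RPKM, log axis) of the 8 genes, with points for mice and lines for group means. *Atp1b1*, *Cacna2d1*, *Clcn2*, *Atp2b3* and *Cacna1h* lie between 9.55 and 46.1 in all 12 mice, *Cacna1c* and *Cacna1d* between 1.10 and 7.77, and *Cacna1g* at or below 0.109.

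Ratios of 2 genes within a library do not depend on how libraries are scaled to each other. The log2 ratio of *Cacna1d* to *Cacna1c*, the L-type pair, was -1.80 ± 0.499 in Ctrl and -2.22 ± 0.279 in βCat-GOF mice (SD, n = 6 each). By two-sided exact permutation p was 0.119, or 0.422 adjusted over 5 ratios. When 1 mouse was left out, the difference of -0.41 ran from -0.55 to -0.30 with unadjusted exact permutation p between 0.0238 (without Ctrl mouse 1) and 0.234 (without Ctrl mouse 4), and 1 of these 12 values passed. Without the mice that repeat a label stem it was -0.52 (exact permutation p = 0.0317, unadjusted). The T-type ratio of *Cacna1h* to *Cacna1g* was 8.09 ± 0.803 and 8.71 ± 0.658 (exact permutation p = 0.169), with few *Cacna1g* counts behind it. Of the other ratios, 2 set a pump or channel against a gene of its own family. For *Atp2b3* over *Atp2b1*, the broadly expressed plasma membrane calcium pump, the groups differed by 0.25 (exact permutation p = 0.268). The difference was -0.14 for *Clcn2* over *Clcn3*, an intracellular chloride-proton exchanger (exact permutation p = 0.413).

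Several of the 8 genes varied together between mice. After subtraction of each group's mean, log2 CPM of *Cacna1d* and *Atp1b1* correlated with r = 0.901 over the 12 mice, *Cacna1c* and *Atp2b3* with 0.874, *Cacna1h* and *Atp2b3* with 0.847 and *Cacna1c* and *Cacna1h* with 0.812. *Clcn2* stood apart, with r between -0.067 and 0.093 to each of the 6 others. These are descriptions over libraries that share depth and tissue composition. The genes most alike *Cacna1d* by this measure were *Fam57b* (r = 0.992), *Tfap2b* (0.986) and *Cnksr2* (0.981), and those most alike *Atp1b1* were *Tspyl4* (0.982), *Lrp11* (0.979) and *Mageh1* (0.972). *Tfap2b* encodes a transcription factor of sympathoadrenal development. For *Atp2b3* they were *D630039A03Rik* (0.960), *Rfx5* (0.948) and the phospholipid flippase gene *Atp10a* (0.946). Of these, *D630039A03Rik* (log2 fold change 1.27, adjusted p = 0.0069) and *Atp10a* (1.12, adjusted p = 0.00241) rose in βCat-GOF adrenals in edgeR. *Cacna1h* was followed most closely by *Zscan26* (0.968), *Araf* (0.965) and *Abcc5* (0.964), *Cacna1c* by *Abcc1* (0.946), *Meg3* (0.945) and *Rab36* (0.945), and *Cacna2d1* by *Zmym5* (0.960), *Braf* (0.958) and *Rasa2* (0.939). For *Clcn2* the closest were *Jakmip3* (0.888), *Pde4a* (0.855) and *Hs6st1* (0.855).

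Marker levels of the medulla and the zG were set beside the same genes. The summed normalized counts of 16 medulla markers, none of them at 0 in any mouse, ran from 103000 (Ctrl mouse 1) to 319000 (Ctrl mouse 3) in Ctrl and from 128000 to 237000 in βCat-GOF adrenals. Of the 16 markers, 14 had a lower mean in βCat-GOF mice and 0 passed the test. Correlations were computed between log2 CPM of a gene and the mean log2 CPM of the markers, not their sum. Within Ctrl, *Cacna1d* followed this mean (r = 0.965, exact permutation p = 0.00417, Spearman's rho = 0.943, exact permutation p = 0.0167, n = 6), and so did *Atp1b1* (r = 0.967, exact permutation p = 0.00833, rho = 0.829, exact permutation p = 0.0583). Over the 28 relations computed, the adjusted p of both r values was 0.0778. Without the 2 mice whose marker mean was farthest from the median, r was 0.766 for *Cacna1d* and 0.881 for *Atp1b1*. Within βCat-GOF mice r was 0.637 (exact permutation p = 0.183) and 0.466 (exact permutation p = 0.34). In those mice both genes had a higher r to the mean log2 CPM of the zG markers described next. This r was 0.816 for *Cacna1d* (exact permutation p = 0.0403, adjusted 0.226, rho = 0.886) and 0.725 for *Atp1b1* (exact permutation p = 0.119, adjusted 0.534, rho = 0.6). In bulk RNA, fewer cells of a type and less RNA per cell cannot be told apart.

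The summed counts of 14 zG markers, none at 0, ran from 60800 to 76000 in Ctrl and from 76600 to 104000 in βCat-GOF adrenals. A large share of these sums was *Kcnk3*, with means of 32030 in Ctrl and 32390 in βCat-GOF mice. By mean log2 CPM of the same markers the groups overlapped. βCat-GOF mice 3, 4 and 6 (5.832, 6.078 and 6.218) lay within the Ctrl range of 5.761 to 6.296. Of these 14 markers, 12 had a higher mean in βCat-GOF mice, and 4 passed the test (*Agtr1a*, *Agtr1b*, *Dab2* and *Vsnl1*), beside 2.16% of all genes tested called higher. The 2 with a lower mean were *Cyp11b2* (log2 fold change -0.18, adjusted p = 0.82 in edgeR) and *Kcnj5* (-0.61, adjusted p = 0.351). βCat-GOF mice 1 and 2 had the highest sums, 98600 and 104000, and these mice also had the highest *Cacna1h* and *Atp2b3*. The same 2 mice had the lowest summed counts of 8 zF markers (509000 and 630000, with 748000 in the lowest control). Their sums of 8 endothelium markers (13400 and 13100) were also the lowest. By mean log2 CPM of the zF markers mouse 1 was the lowest (9.743), while mouse 2 (10.66) lay above every control. Neither list was correlated with the 8 genes. Within βCat-GOF mice log2 CPM of *Cacna1h* followed the mean log2 CPM of the zG markers, not their sum, with r = 0.971 (exact permutation p = 0.00556, adjusted 0.0778, rho = 1.0 with exact permutation p = 0.00278, n = 6). *Atp2b3* followed it with r = 0.889 (exact permutation p = 0.0167, adjusted 0.117, rho = 0.943 with exact permutation p = 0.0167). Without the 2 mice farthest from the median marker mean, r was 0.933 and 0.813. The permutation treats mice that share a label stem as separate, among them βCat-GOF mice 1 and 2, which were both at the high end. None of the correlations with the medulla or zG markers was repeated without the mice that repeat a stem. Within Ctrl the corresponding r was -0.595 (exact permutation p = 0.21) for *Cacna1h* and 0.136 (exact permutation p = 0.789) for *Atp2b3*. The part of tissue composition in the values of the 8 genes was not tested.

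**Figure D4:**
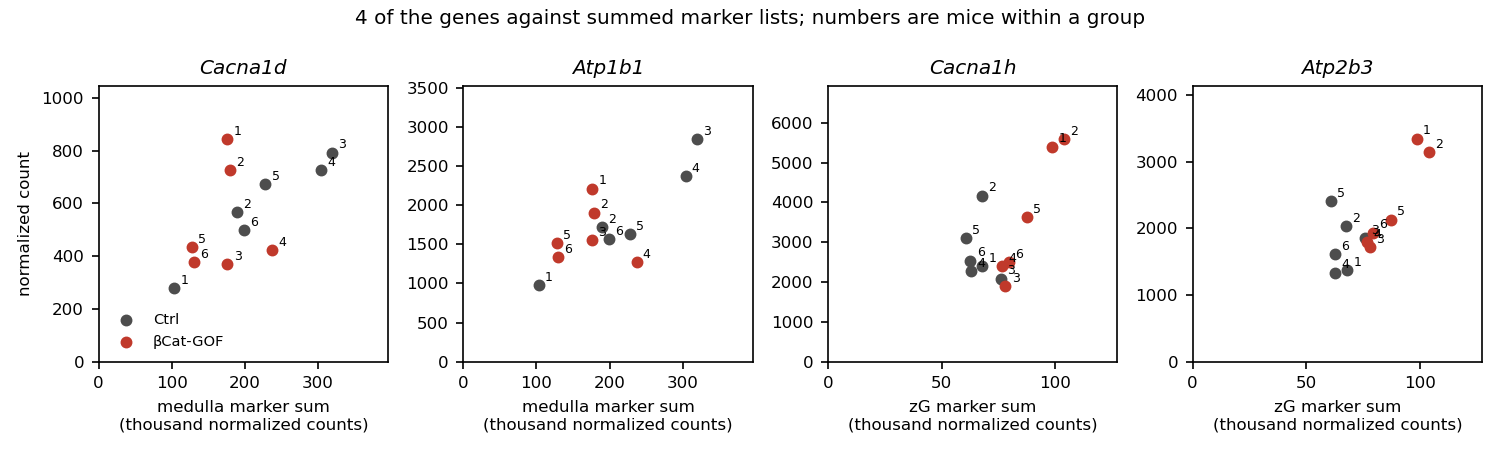
Normalized counts (y axis) of *Cacna1d* and *Atp1b1* against the summed medulla markers, and of *Cacna1h* and *Atp2b3* against the summed zG markers (x axes), with points for mice and numbers for the mouse within its group. Ctrl mice 1 and 3 hold the lowest and highest medulla sums (103000 and 319000), and βCat-GOF mice 1 and 2 hold the highest zG sums (98600 and 104000) with the highest *Cacna1h* and *Atp2b3*. The correlations in the text used the mean log2 CPM of the markers and not these sums.

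The other genes of these families and of the calcium pathway were read from 7 lists of 92 genes, of which 91 were found. Not all of the 91 passed the filter on low counts, and the numbers tested are given by list below. Of the genes tested, 1 rose and 3 fell in βCat-GOF adrenals in edgeR, beside 2.16% called higher and 1.52% called lower of all genes tested. *Cacna2d3*, a relative of *Cacna2d1* that encodes the α2δ-3 subunit, rose. It had 45.0, 67.3 and 94.5 normalized counts in the lowest, median and highest control (mean 68.6 ± 16.8, SD, n = 6) and 104, 161 and 233 in βCat-GOF mice (mean 162 ± 44.9, SD, n = 6). All 6 βCat-GOF mice lay above all controls, and edgeR gave a log2 fold change of 1.24 ± 0.22 (standard error) with an adjusted p of 0.00751. The change was 1.00 without βCat-GOF mice 1 and 2 (adjusted p = 0.0146). *Cacna2d3* remained at a low level per length (0.392 in Ctrl and 0.93 in βCat-GOF adrenals, as RPKM), against 28.1 and 30.5 for *Cacna2d1*.

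*Atp2b2*, a plasma membrane calcium pump related to *Atp2b3*, fell from 291 ± 59.3 to 151 ± 49.8 normalized counts (SD, n = 6 each; a log2 difference of -0.95, standard error 0.22, adjusted p = 0.0327 in edgeR). 5 of 6 controls lay above every βCat-GOF mouse. *Ryr3*, a ryanodine receptor that releases calcium from internal stores, fell from 147 ± 40.3 to 82.3 ± 13.3 (log2 fold change -0.84, standard error 0.21, adjusted p = 0.0428 in edgeR), and its groups overlapped. *Ppp3cc*, a catalytic subunit of calcineurin, fell from 361 ± 24.2 to 270 ± 30.7 (log2 fold change -0.43, standard error 0.10, adjusted p = 0.0356 in edgeR), with all 6 βCat-GOF mice below all controls. The calls of these 3 genes were not stable, since 0 of them passed with 1 surrogate variable, or when any single one of Ctrl mice 2 to 6 or βCat-GOF mice 3, 5 and 6 was left out. Leaving out 1 mouse gave 0 to 6 genes called lower over the lists. Without βCat-GOF mice 1 and 2 the lists held 3 genes called higher and 10 called lower. The medulla markers given above had a lower mean in βCat-GOF mice for 14 of 16 genes, and their part in these falls was not tested.

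Among the other calcium channel pores, 0 of 4 tested genes were called, and all 4 had a lower mean (median log2 fold change -0.37). The most abundant were *Cacna1b* (N-type, -0.48, adjusted p = 0.414 in edgeR) and *Cacna1a* (P/Q-type, -0.26, adjusted p = 0.592), at 1.08 and 0.633 RPKM in Ctrl, below *Cacna1d*. Of 11 tested auxiliary subunit genes, *Cacna2d3* alone was called (median log2 fold change -0.03). *Cacnb2*, which encodes a β subunit and was the most abundant of them, had 1287 ± 316.3 normalized counts in Ctrl and 2141 ± 770.8 in βCat-GOF mice (SD, n = 6 each; log2 fold change 0.73, standard error 0.22, adjusted p = 0.0885 in edgeR). DESeq2 without shrinkage gave an adjusted p of 0.0202 and edgeR with 1 surrogate variable one of 0.0035 for *Cacnb2*. *Cacnb3* had a log2 fold change of 0.07 (adjusted p = 0.901 in edgeR).

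In the sodium-potassium pump list 0 of 10 tested genes were called (median log2 fold change 0.05). *Fxyd6*, a regulator of the pump, had a log2 fold change of 0.003. Of 10 tested calcium removal genes, *Atp2b2* alone was called (median -0.05). The most abundant members of that list, the endoplasmic reticulum pump gene *Atp2a2* and the Golgi pump gene *Atp2c1*, had log2 fold changes of 0.15 (adjusted p = 0.35) and 0.01 (adjusted p = 0.958 in edgeR). The chloride channel list gave 0 calls of 6 tested (median -0.07), with *Clcn4-2* at -0.04 and *Clcn3* at -0.17 (adjusted p = 0.867 and 0.367 in edgeR). For release and store entry, *Ryr3* alone was called of 10 tested (median 0.03), and the inositol trisphosphate receptor genes *Itpr1* and *Itpr2* had log2 fold changes of 0.05 and -0.10. Among 23 calcium effectors *Ppp3cc* alone was called (median -0.02), and the calmodulin gene *Calm2* had a log2 fold change of -0.20 (adjusted p = 0.381 in edgeR).

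**Figure D5:**
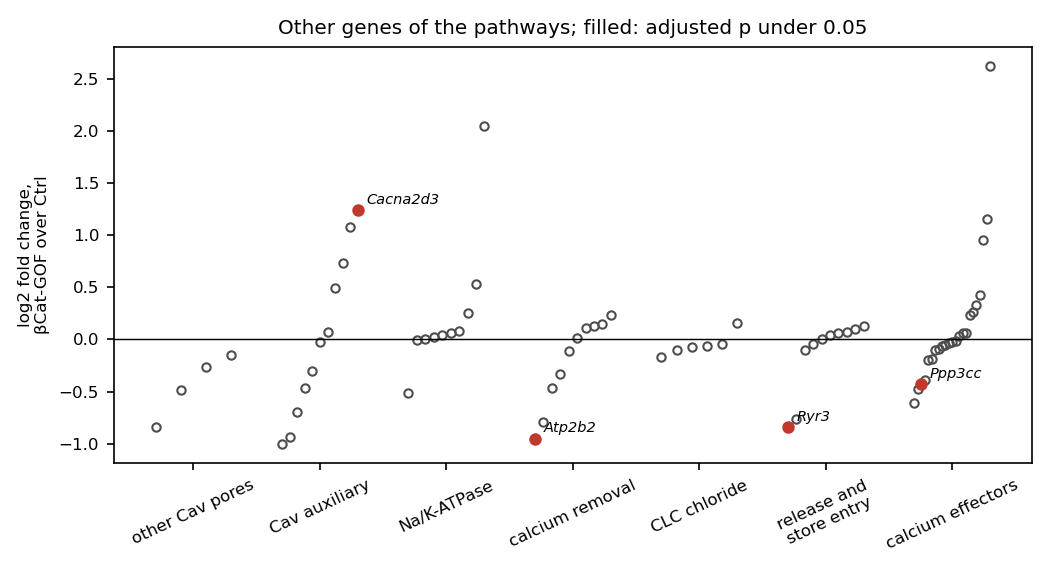
Log2 fold changes of βCat-GOF over Ctrl (y axis) of the tested genes in the 7 lists, 1 point per gene and sorted within a list, with filled points for an adjusted p under 0.05 in edgeR. *Cacna2d3* (1.24) is the single filled point above 0, and *Atp2b2* (-0.95), *Ryr3* (-0.84) and *Ppp3cc* (-0.43) lie below 0; open points reach higher folds where the spread between mice was larger.

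The promoters of 5 of the 8 genes (*Cacna1c*, *Cacna1d*, *Cacna2d1*, *Atp1b1* and *Clcn2*) were in the RefSeq promoter table of GRCm38.p6, with 8 promoters in all. The letters CTTTGAT, a form of the site read by TCF/LEF factors, which act with β-catenin on DNA, were searched on both strands from 250 bases before to 50 bases after each start. They were in 0 of these 8 promoters and in 3.73% of all 32851 promoters of the same length, which says only that these letters are not in these windows.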

How the data were processed

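Whole adrenals of 6 Ctrl and 6 βCat-GOF mice were sequenced, 1 library per mouse, after a TruSeq mRNA preparation. The authors trimmed adapters with cutadapt, used STAR to align reads to mm10 and took counts of uniquely mapping reads from featureCounts 1.4.4. The deposited counts are not normalized. The annotation release and strand setting are not given in the sources used here. A second deposited table holds a signal, the counts of each library divided by 1 factor. It was used for gene symbols and as an alternative scaling, and 0 columns were left unmapped. The submitters' processing notes also name DESeq2 1.6.3.

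All genes were fitted with edgeR 4.0.16, run in R 4.3.3, by its two-sided quasi-likelihood test after TMM scaling and filterByExpr, and p-values of the 14953 genes were adjusted by Benjamini-Hochberg. Normalized counts are counts divided by DESeq2 size factors. Single values and ratios (0.5 added to each count) were compared by exact permutation of the mice in R. Pearson and Spearman correlations with the mean log2 CPM of marker lists were tested by exact permutation over all orderings. Their p-values were adjusted by Benjamini-Hochberg (SciPy 1.17.1). Counting error limits genes with few counts, such as *Cacna1g*. Positions and exon lengths came from GENCODE M21 on GRCm38, and copies were searched with blastn 2.17.0. Figures used matplotlib 3.10.9. Alternatives were DESeq2 1.42.0, other scalings, filters and thresholds, 1 surrogate variable (sva 3.50.0), and subsets of mice. The fit without βCat-GOF mice 1 and 2, the fit on counts summed within label stems and the deposited factors were added after seeing the data. Scripts were tested on simulated data.

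The 8 genes, the lists and the tests were chosen with earlier results of these data known. The genes named are the 8 genes, every called gene of the 7 lists, the 2 genes of each list with the highest mean count, and the 3 genes most alike each of the 8 genes with a base mean over 100. Replicates are separate mice. Other genes named for a changed call were chosen after their values were seen. Values of 2 genes that this rule names, and 1 of the 5 ratios, are not reported here.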

Additional observations from a re-analysis of the deposited data

Results flagged for a closer look

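*Cacna1g* in Ctrl mouse 6 stood far from the other controls, with 22.3 normalized counts against 6.67 to 9.14 in the other 5. The gap to the nearest control was 0.842 of the whole range, above Dixon's critical value at the 95% level. The value rests on 16 raw counts in a library of 14090378. Among the 16 groups examined (8 genes in Ctrl and βCat-GOF mice) this was the single one past that value, and chance gives about 1 in 20.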

How the results depend on the processing

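In none of the 12 fits that left out 1 mouse did any of the 7 tested genes pass (0 to 0 called in each direction). With 1 surrogate variable 1 of them was called higher (*Atp2b3*, log2 fold change 0.69), and *Cacna1d* (0.30) and *Atp1b1* (0.16) turned positive. Without βCat-GOF mice 1 and 2 *Cacna1h* (-0.10) and *Cacna2d1* (-0.012) turned negative, as did *Cacna2d1* (-0.041) without the mice that repeat a label stem. None of these reversed values passed the test. For *Cacna1h*, βCat-GOF mice 1 and 2 held the highest values of their group, which fixes a downward shift when they are left out. The cause of the other reversals was not tested.

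Over the 7 lists, 1 gene was called higher and 3 lower. DESeq2 without shrinkage gave 4 and 5 (adding *Cacnb2*, *Atp1a4*, *Nr4a2*, *Cacna1i* and *Atp2b4*) and with its prior 3 and 5. With 1 surrogate variable 4 were called higher and 0 lower. Without the mice repeating a stem 2 were called higher, and without βCat-GOF mice 1 and 2 the counts were 3 and 10. Genes called lower numbered 1 with no filter, 0 at an adjusted p under 0.01 and 0 without βCat-GOF mouse 5, whose label begins with another number. Leaving out 1 mouse gave 1 to 2 higher and 0 to 6 lower. *Cacna2d3* passed in every setting.

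The difference in the *Cacna1d* to *Cacna1c* log2 ratio was -0.55 to -0.30 when 1 mouse was left out, and it was -0.52 (exact permutation p = 0.0317) without the mice repeating a stem. No paired analysis was possible because the labels of the groups share no replicate numbers. Spread between 6 mice per group limits the 7 tested genes, and counting error limits *Cacna1g*.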
